A study of Mus musculus with 17 samples.

Results

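The transcripts of 10 genes that rearrange immunoglobulin genes or build the pre-B receptor were followed across 5 progenitor fractions of mouse bone marrow. The genes were Rag1, Rag2, Dntt, Vpreb1, Vpreb3, Igll1, Ighm, Cd79a, Cd79b and Blnk. Every probe set annotated with 1 gene symbol equal to one of these names was taken, which gave 23 of the 45037 probe sets tested and 10 of 18193 genes. Dntt had 3 probe sets, Igll1 had 2, Ighm had 11 and each other gene had 1. Another 5 probe sets, whose annotation joined Vpreb1 or Ighm to further gene symbols, were not used. Where a gene had several probe sets, the one with the highest mean stands for it, and the others are given beside it.

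The data were 17 Affymetrix arrays of cells sorted from the marrow of adult mice aged 10 to 14 weeks, and the labels give no strain, genotype or treatment. The common lymphoid progenitor fraction (CLP, 3 arrays) was gated as Lin-Sca1lowKitlowIL7r+Flk2+. The pre-granulocyte-macrophage fraction (preGM, 3 arrays) was gated as Lin-Sca1-Kit+Itga2b-FcgRlowSlamf1-Englow. The fraction preMegE (5 arrays), a precursor of megakaryocytes and red cells, was gated like preGM but as Slamf1+. The early erythroid fraction preCFUE (3 arrays) was Slamf1+Enghigh, and MkP (3 arrays), the megakaryocyte progenitors, were gated as Lin-Sca1-Kit+Itga2b+Slamf1+. The short names follow the scheme by which the study is known, and the gates are those of the array titles. No label tells if the arrays within 1 fraction are from different mice or sorts, and p-values therefore measure only the spread between arrays, which may be technical. Values are linear RMA intensities, a probe set summary of array brightness. Differences are of log2(intensity + 16), each with its SE, and limma gave p-values with Benjamini-Hochberg adjustment over the 45037 probe sets. A gene passed the test at an adjusted p under 0.05.

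Developing lymphocytes assemble their antigen receptor genes by V(D)J recombination. The Rag1 and Rag2 proteins together cut the DNA, and terminal deoxynucleotidyl transferase, the product of Dntt, adds bases without a template at the joints. A rearranged heavy chain of the mu class, encoded by Ighm, then pairs with a surrogate light chain made of the Vpreb1 and Igll1 proteins. This pre-B receptor signals through Cd79a and Cd79b, and the adaptor Blnk links it to enzymes inside the cell. Transcripts from the Ighm locus can also arise before rearrangement, and these arrays do not tell such transcripts from those of a rearranged gene.

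The fractions showed the markers of their names. The receptor gene Il7r, used in the CLP gate, read 1296 to 2367 in CLP and at most 86.8 elsewhere. The summed level of 8 granulocyte and monocyte progenitor markers was 17910 to 19640 in preGM, 2335 to 3301 in CLP and 187.6 to 582.5 in the other 3 fractions. Megakaryocyte and erythroid markers (8 genes) summed to 7415 to 13520 in preMegE, MkP and preCFUE and to 228.4 to 810.2 in CLP and preGM. The CLP arrays differed from the other 14 in sex-linked transcripts. Xist, made from the inactive X chromosome of females, read 6.27 to 6.90 in CLP and 933 to 5272 elsewhere, while the Y-linked genes Kdm5d and Eif2s3y read 43.5 to 328.9 in CLP and 4.72 to 8.25 elsewhere. The sex of the mice and the CLP gate therefore cannot be told apart in any value that sets CLP against another fraction, whereas the arrays of preGM, preMegE, MkP and preCFUE were all high in Xist. Replicate 2 of CLP correlated more closely with preGM (r = 0.962) than with its own fraction (r = 0.948, over all probe sets), and was the only array of the 17 closer to another fraction. Replicate 5 of preMegE carried immunoglobulin signal, described with Ighm below.

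In preGM, Dntt and Ighm stood far above the megakaryocyte and erythroid fractions, and Blnk, Cd79b and Rag2 were higher by less than 2 on the log2 scale than some or all of them. The other 5 genes, Rag1, Vpreb1, Vpreb3, Igll1 and Cd79a, passed the test in no comparison of preGM with these fractions. In CLP, 8 of the 10 genes were higher than in preGM, and Ighm and Cd79b did not pass. All 10 genes passed the F test over the 5 fractions by their brightest probe set. Of their 23 probe sets 13 passed, beside 23.7% of all probe sets. Counted by the brightest probe set, 5871 genes outside the 10 passed, of 18193 genes in all.

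**Figure D1:**
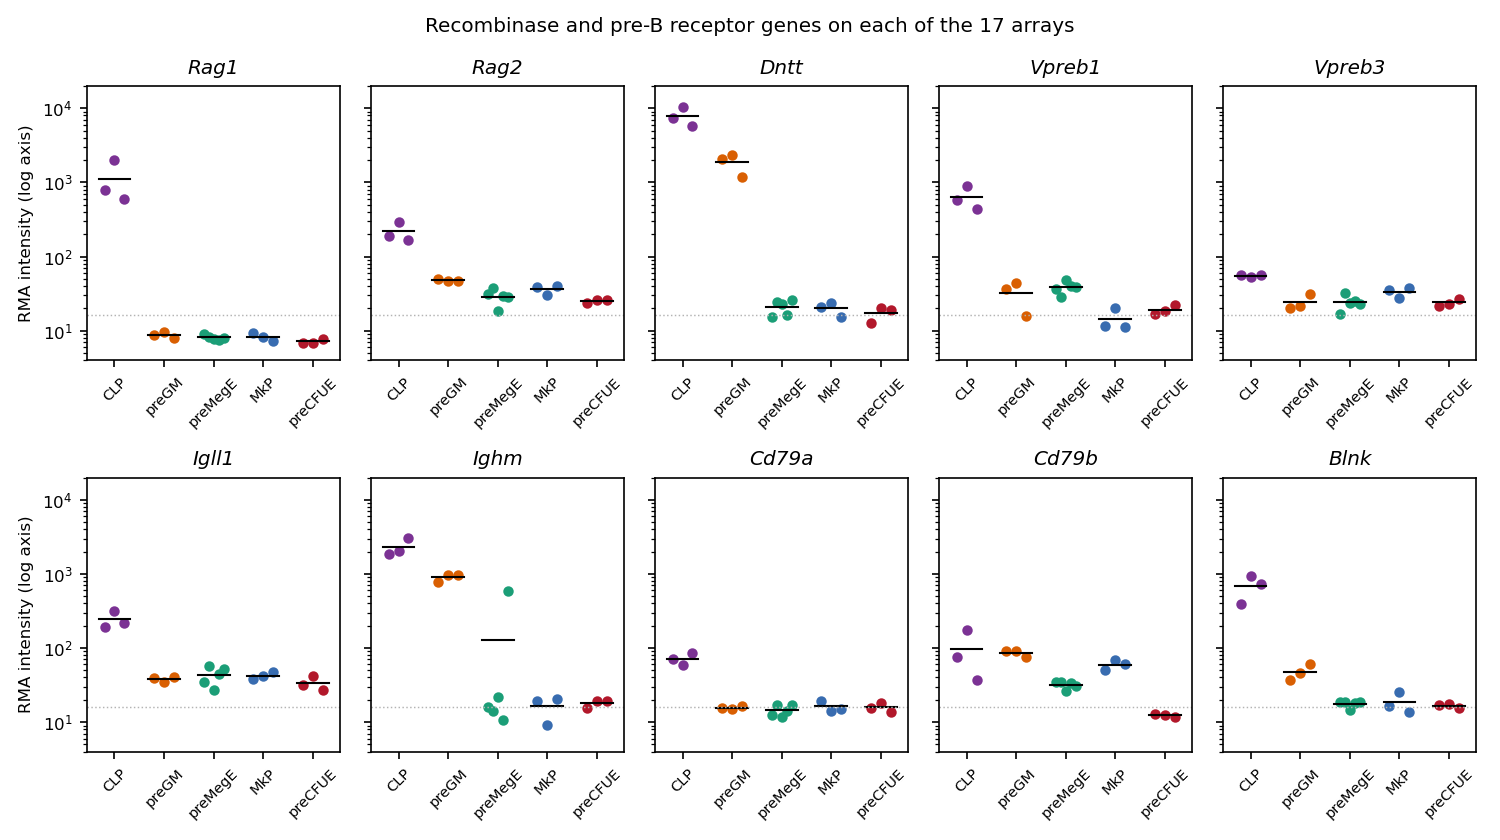
RMA intensity (log axis) of the brightest probe set of each of the 10 genes, with 1 point per array and a bar at the mean of each fraction; the dotted line marks the offset of 16 used before taking log2. Dntt and Ighm are high in both CLP and preGM, Rag1, Vpreb1, Vpreb3, Igll1 and Cd79a are high in CLP with preGM among the other fractions, and replicate 5 of preMegE stands apart for Ighm at 582.7.

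Against preMegE, 4 of the 10 genes were higher in preGM and 0 lower, with a median log2 difference over the 10 genes of 0.29 beside -0.01 over all probe sets. Of all probe sets, 3.46% were called higher in preGM and 1.75% higher in preMegE. Against MkP, 3 genes were higher in preGM and 0 lower, with a median of 0.36 beside -0.02 over all probe sets, where 4.28% were called higher in preGM and 2.26% higher in MkP. Against preCFUE, 5 genes were higher in preGM and 0 lower, with a median of 0.52 beside -0.02, and 4.95% of all probe sets were called higher in preGM and 3.52% higher in preCFUE. These 3 comparisons share the preGM arrays, so they are not independent of each other. In CLP against preGM, 8 genes were higher and 0 lower, with a median of 1.96 beside 0.03 over all probe sets, of which 3.9% were called higher in CLP and 6.91% higher in preGM. Counted over the 23 probe sets, 7, 6, 8 and 10 were called higher in the 4 comparisons, in the order given. The count against preMegE was 2 without preGM replicate 2 or without preGM replicate 3. Over all probe sets, 1157 and 1457 were then called higher in preGM. The count against preCFUE was 3 without either of these arrays or without preCFUE replicate 1 or 3. In these settings 1741 to 2096 of all probe sets were called higher in preGM. Without CLP replicate 2, all 8 genes called in CLP against preGM kept their call. Their differences included 4.83 for Rag1, 3.50 for Vpreb1, 3.12 for Blnk and 1.86 for Dntt. Over all probe sets, 4349 were then called higher in CLP and 6096 higher in preGM, beside 1757 and 3110 with all arrays.

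**Figure D2:**
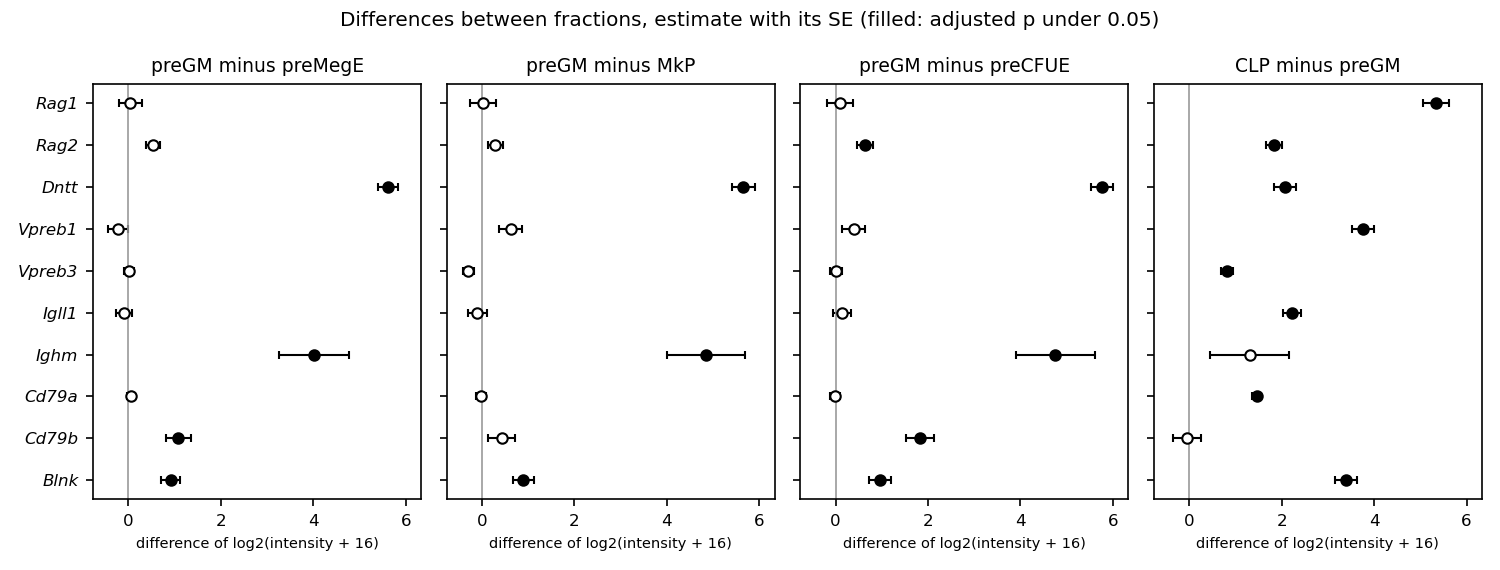
Difference of log2(intensity + 16) for each gene in the 4 comparisons, with bars of 1 SE; filled points have a limma adjusted p under 0.05. Dntt lies above 5.6 in the 3 comparisons of preGM with megakaryocyte and erythroid fractions and at 2.08 in CLP against preGM, while Rag1 lies near 0 in the first 3 and at 5.33 in the last.

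Promoters of 4 genes are shown because they belong to the contrasting patterns: Dntt and Blnk were higher in preGM than in each megakaryocyte and erythroid fraction and higher still in CLP, whereas Rag1 and Vpreb1 passed the test in CLP against preGM and in no comparison of preGM with those fractions. Each promoter window runs 5′ to 3′ on the strand of its gene, from 250 bases before the annotated start to 50 bases after it, from RefSeq on GRCm38.p6. The windows are chr19:41029025-41029324 on the plus strand for Dntt, chr19:40994172-40994471 on the minus strand for Blnk, chr2:101649483-101649782 on the minus strand for Rag1 and chr16:16869206-16869505 on the minus strand for Vpreb1. Capitals mark matches on either strand to any of 5 motifs: the E-box CANNTG, the form of it that E proteins favour (CAGGTG), the core bound by EBF (CCCNNGGG), the octamer ATTTGCAT and the ETS motif AGGAAGT.
Dntt: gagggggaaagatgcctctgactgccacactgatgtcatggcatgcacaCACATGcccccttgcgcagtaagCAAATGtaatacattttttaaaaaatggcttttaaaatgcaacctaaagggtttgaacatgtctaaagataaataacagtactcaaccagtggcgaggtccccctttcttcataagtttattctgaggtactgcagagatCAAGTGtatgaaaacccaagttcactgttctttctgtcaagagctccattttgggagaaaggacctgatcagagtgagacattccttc
Blnk: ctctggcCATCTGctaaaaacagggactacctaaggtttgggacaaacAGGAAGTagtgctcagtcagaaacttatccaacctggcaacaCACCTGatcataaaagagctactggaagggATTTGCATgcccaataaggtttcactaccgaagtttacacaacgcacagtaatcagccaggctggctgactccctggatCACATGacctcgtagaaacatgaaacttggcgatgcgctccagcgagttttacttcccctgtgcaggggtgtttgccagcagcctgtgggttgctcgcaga
Rag1: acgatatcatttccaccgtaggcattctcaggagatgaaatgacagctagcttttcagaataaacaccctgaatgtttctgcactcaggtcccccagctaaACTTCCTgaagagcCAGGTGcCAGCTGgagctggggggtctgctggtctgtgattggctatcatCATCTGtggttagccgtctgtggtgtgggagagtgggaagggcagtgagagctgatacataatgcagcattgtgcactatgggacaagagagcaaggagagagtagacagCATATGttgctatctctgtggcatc
Vpreb1: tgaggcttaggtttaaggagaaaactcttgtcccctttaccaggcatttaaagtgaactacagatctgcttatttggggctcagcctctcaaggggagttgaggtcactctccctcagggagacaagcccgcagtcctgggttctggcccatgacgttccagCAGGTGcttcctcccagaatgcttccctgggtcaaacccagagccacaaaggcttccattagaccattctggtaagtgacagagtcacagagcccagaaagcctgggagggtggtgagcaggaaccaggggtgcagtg

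Promoter windows were found for 8 of the 10 genes, and Cd79b and Ighm had none in the table used. An E-box CANNTG was in all 8 windows and in 72.3% of the 32851 windows of 300 bases, so its presence is common. The narrower CAGGTG, whose matches are also counted under CANNTG, was in 5 of the 8 (Rag1, Cd79a, Igll1, Vpreb1 and Blnk) and in 20.2% of all windows. The ETS motif was in 4 (Rag1, Cd79a, Vpreb3 and Blnk) and in 9.35% of all windows, the octamer in 2 (Vpreb3 and Blnk) and in 1.74%, and the EBF core in 1 (Igll1) and in 13.7%. The Dntt window held 3 E-boxes, beginning 201, 178 and 38 bases before the start, and none of the other 4 motifs. The Blnk window held the ETS motif 202 bases, CAGGTG 160 bases and the octamer 130 bases before its start. In the Rag1 window the ETS motif began 149 bases and CAGGTG 135 bases before the start, and in the Vpreb1 window CAGGTG began 88 bases before it. A match describes letters in these windows and was not tested for binding. Several of the genes are neighbours: the starts of Rag1 and Rag2 lie 24.8 kb apart on opposite strands of chromosome 2, those of Dntt and Blnk 35.1 kb apart on opposite strands of chromosome 19, and those of Vpreb1 and Igll1 5.27 kb apart on the same strand of chromosome 16.

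Dntt was higher in preGM than in all 3 megakaryocyte and erythroid fractions, and higher again in CLP. Its brightest probe set (1449757_x_at) read 2098, 2332 and 1168 on the preGM arrays and 7463, 10280 and 5702 on the CLP arrays. On the 11 arrays of the megakaryocyte and erythroid fractions it read 12.6 to 25.9. The preGM arrays overlapped with no other fraction, and preGM replicate 3 was the lowest of its fraction. The difference of preGM from preMegE was 5.62 ± 0.22 on the log2 scale (limma adjusted p = 8.86e-10), that from MkP 5.66 ± 0.24 (limma adjusted p = 3.5e-09) and that from preCFUE 5.77 ± 0.24 (limma adjusted p = 1.64e-09). CLP stood a further 2.08 ± 0.24 above preGM (limma adjusted p = 0.000116), so the preGM mean was 23.9% of the CLP mean. In a fit of the CLP and preGM arrays alone, this last difference had an adjusted p of 0.0638 (limma).

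The x in the name of the brightest Dntt probe set marks probes that may bind other transcripts. The other probe sets of Dntt gave the same order of CLP, preGM and the rest. Probe set 1450545_a_at read 898.8, 752.9 and 250.3 in preGM and 1676, 7215 and 1590 in CLP, with 12.3 to 20.8 on the other 11 arrays. Probe set 1420166_at read 209.3, 275.7 and 183.0 in preGM and 1004, 761.9 and 1019 in CLP, with 6.51 to 11.3 on the others. The preGM means were 18.1% and 24.0% of the CLP means, and 38.8% and 22% without CLP replicate 2. Against preMegE they differed by 4.09 ± 0.44 (limma adjusted p = 2.69e-05) and 3.25 ± 0.12 (limma adjusted p = 4.52e-10), so the size of the difference depended on the probe set while its direction did not.

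**Figure D3:**
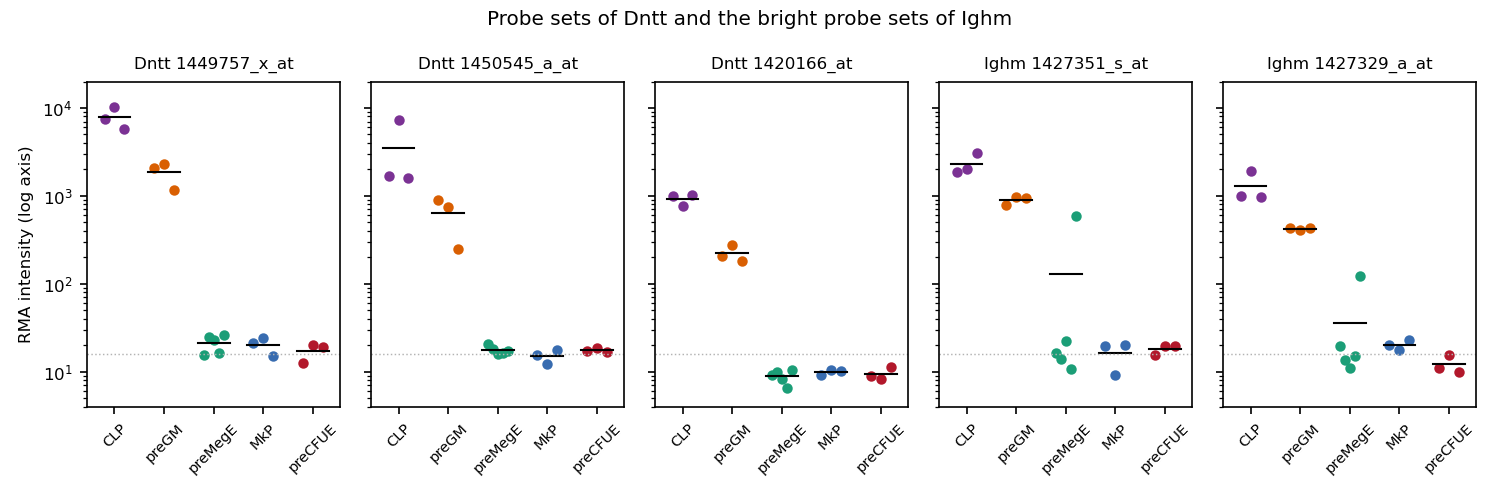
RMA intensity (log axis) on each array for the 3 probe sets of Dntt and the 2 bright probe sets of Ighm, with a bar at the mean of each fraction and a dotted line at 16. In all 5 panels the preGM arrays lie below CLP and above every megakaryocyte and erythroid array, and preMegE replicate 5 is the array nearest to them for Ighm, at 582.7 and 121.6.

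Of the neighbouring genes of the recombinase, Rag2 passed the test in 1 comparison of preGM with a megakaryocyte or erythroid fraction and Rag1 in 0, and the difference between the genes was not tested. Rag1 read 797.3, 1991 and 591.4 in CLP and 8.66, 9.67 and 8.02 in preGM. On the other 11 arrays it read 6.75 to 9.37, so preGM overlapped with preMegE and MkP and lay just above preCFUE. CLP exceeded preGM by 5.33 ± 0.28 (limma adjusted p = 4.38e-08), the largest difference among the 10 genes in that comparison. Against preMegE the difference was 0.04 ± 0.25 (limma adjusted p = 0.99).

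Rag2 read 189.5, 294.1 and 169.6 in CLP and 49.3, 47.4 and 46.9 in preGM. It read 30.8, 37.3, 18.3, 29.2 and 28.5 in preMegE, 38.8, 29.8 and 40.6 in MkP, and 23.3, 26.1 and 25.9 in preCFUE. The preGM arrays were close to each other and lay above every megakaryocyte and erythroid array, at 22% of the CLP mean. The difference passed the test against preCFUE (0.64 ± 0.17, limma adjusted p = 0.0323) and missed it against preMegE (0.53 ± 0.15, limma adjusted p = 0.0721) and MkP (0.29 ± 0.17, limma adjusted p = 0.349). The call against preCFUE was lost without any 1 of the 6 preGM and preCFUE arrays (limma adjusted p = 0.0744 to 0.107), and the difference from preMegE passed without CLP replicate 2, CLP replicate 3 or preMegE replicate 2 (limma adjusted p = 0.0127 to 0.0462) and under 7 other settings, among them an offset of 1 (limma adjusted p = 0.0406), quantile normalization (limma adjusted p = 0.0435) and array weights (limma adjusted p = 0.00125). Over all probe sets, array weights called 3431 higher in preGM and 1946 higher in preMegE, beside 1557 and 789 with equal weights. CLP was higher than preGM by 1.84 ± 0.17 (limma adjusted p = 1.29e-05).

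With equal weights for all arrays, no surrogate light chain gene passed the test in a comparison of preGM with a megakaryocyte or erythroid fraction when all arrays were kept. Vpreb1, which with Igll1 forms the surrogate light chain, read 579.1, 890.0 and 440.5 in CLP and 36.0, 44.2 and 15.6 in preGM. It read 36.5, 28.7, 48.6, 39.5 and 38.4 in preMegE, 11.6, 20.4 and 11.2 in MkP, and 16.9, 18.6 and 22.1 in preCFUE. Levels of preGM and preMegE overlapped, and preGM replicate 3 lay below its 2 fellows and among the MkP and preCFUE arrays. The difference of preGM was -0.22 ± 0.22 from preMegE (limma adjusted p = 0.868), 0.62 ± 0.25 from MkP (limma adjusted p = 0.166) and 0.40 ± 0.25 from preCFUE (limma adjusted p = 0.519). Without preGM replicate 3 the difference from MkP passed, at 0.89 (limma adjusted p = 0.0368). With array weights it was 0.91 (limma adjusted p = 0.00211), and that from preCFUE 0.62 (limma adjusted p = 0.00835). Over all probe sets, array weights called 6042 higher and 4237 lower against MkP, beside 1929 and 1020 with equal weights. Against preCFUE they called 4253 and 3692, beside 2231 and 1586. CLP exceeded preGM by 3.76 ± 0.25 (limma adjusted p = 4.1e-07).

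Igll1, the lambda-like component, was read by its brighter probe set (1420176_x_at) at 190.7, 319.9 and 220.3 in CLP and at 39.0, 35.3 and 41.0 in preGM. The 11 megakaryocyte and erythroid arrays read 26.8 to 56.9 and overlapped with preGM. CLP was higher than preGM by 2.22 ± 0.20 (limma adjusted p = 8.4e-06). The second Igll1 probe set (1420177_at) read 9.31 to 14.6 on all 17 arrays and separated no fraction, so the 2 probe sets disagree, and the x in the name of the brighter one marks probes that may bind other transcripts.

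Vpreb3, a Vpreb-related protein that binds immunoglobulin chains inside the cell read 55.8, 52.7 and 56.1 in CLP, 20.3, 21.8 and 31.3 in preGM and 16.6 to 37.2 in the other fractions. CLP was above every other array and exceeded preGM by 0.82 ± 0.13 (limma adjusted p = 0.00133). Differences of preGM from preMegE (0.02), MkP (-0.29) and preCFUE (0.01) did not pass, with limma adjusted p of 0.991, 0.197 and 0.993. With array weights preGM was lower than MkP, by -0.40 (limma adjusted p = 0.0163). Over all probe sets, 4237 were called lower in preGM with these weights, beside 1020 with equal weights.

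The brightest probe set of the mu heavy chain gene was, beside that of Dntt, the one with a difference above 4 on the log2 scale in preGM against each megakaryocyte and erythroid fraction. Ighm probe set 1427351_s_at read 786.5, 969.8 and 956.2 in preGM and 1873, 2012 and 3073 in CLP. In preMegE it read 16.2, 14.1, 22, 10.8 and 582.7, and in MkP and preCFUE 9.12 to 20.3. All preGM arrays lay above all megakaryocyte and erythroid arrays, and preMegE replicate 5 lay far from its 4 fellows. With the mean of the log2 values over all 11 Ighm probe sets, 9 of them dim, the differences of preGM from preMegE, MkP and preCFUE were 0.65, 0.70 and 0.74 and still passed (limma adjusted p = 0.0019, 0.00311 and 0.00124). For 1427351_s_at the difference of preGM from preMegE was 4.01 ± 0.76 (limma adjusted p = 0.0046), and without preMegE replicate 5 it was 4.86 ± 0.18 (limma adjusted p = 3.59e-09). In a fit of the preGM and preMegE arrays alone, with that array kept, the adjusted p was 0.0738 (limma). Against MkP the difference was 4.85 ± 0.85 (limma adjusted p = 0.00304) and against preCFUE 4.75 ± 0.85 (limma adjusted p = 0.00214).

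CLP and preGM did not overlap for Ighm, and the preGM mean was 39.0% of the CLP mean. The difference of 1.31 ± 0.85 did not pass (limma adjusted p = 0.324). Without preMegE replicate 5, which enters through the shared estimate of the spread, the same difference had an SE of 0.19 and passed (limma adjusted p = 0.00121). The second bright probe set, 1427329_a_at, read 431.4, 403.7 and 427.2 in preGM and 997.9, 1916 and 973.5 in CLP. Its level was 19.6, 13.7, 10.9, 15 and 121.6 in preMegE and 10.0 to 23.2 in MkP and preCFUE. preGM exceeded preMegE by 3.40 ± 0.42 here (limma adjusted p = 0.000106), and CLP exceeded preGM by 1.51 ± 0.47 without passing (limma adjusted p = 0.053). The 9 other Ighm probe sets read 7.24 to 79.7 on all arrays, and none of them was called in any of the 4 comparisons. Probe sets of the immunoglobulin heavy chain locus can share sequence with related genes, and the s in the name of the brightest one marks probes shared between transcripts, so its signal is uncertain to that degree.

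On preMegE replicate 5 Jchain and neutrophil markers were high beside Ighm. Jchain, which joins secreted immunoglobulin units in plasma cells, read 60.04 there and 7.59 to 13.0 on the other 16 arrays. The summed level of 5 plasma cell markers was 130.2 on this array and 57.8 to 89.4 on the other preMegE arrays. Without Jchain, the other 4 summed to 70.2 there, within the range of 50.2 to 81.2 on the other preMegE arrays. The summed level of 8 mature B cell markers was 222.4, within the range of 180.8 to 239.3 over the preMegE arrays, and the B cell surface gene Ms4a1 read 8.22 there. On the same array Dntt read 25.9, the highest of the 11 megakaryocyte and erythroid arrays, beside 24.6 on the next, Blnk read 19.0, the highest in preMegE, and Cd79b read 30.6. The summed level of 6 neutrophil markers was 1557 on this array and 98.96 to 707.8 on the other preMegE arrays, and reached 1566 in preGM and 1400 in MkP. The part of these markers in the Ighm value was not tested.

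The signalling partners of the heavy chain, Cd79a and Cd79b, ordered the fractions differently. Cd79a read 70.0, 59.8 and 85.3 in CLP and 15.5, 15.1 and 16.3 in preGM, and the other 11 arrays read 11.6 to 19.5. CLP lay above all other arrays and exceeded preGM by 1.46 ± 0.10 (limma adjusted p = 8.23e-07), while the preGM arrays lay in the middle of the rest. Cd79b read 90.6, 90.4 and 75.3 in preGM and 75.6, 176.5 and 37.4 in CLP, with preGM inside the wide range of CLP. It read 34.5, 35.0, 26.6, 34.2 and 30.6 in preMegE, 50.1, 67.9 and 61.6 in MkP and 13.0, 12.4 and 11.8 in preCFUE, so that, CLP apart, the fractions followed each other without overlap.

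For Cd79b, preGM exceeded preCFUE by 1.83 ± 0.30 (limma adjusted p = 0.00103) and preMegE by 1.07 ± 0.27 (limma adjusted p = 0.0314). The second call was lost without any 1 of the 8 preGM and preMegE arrays (limma adjusted p = 0.0527 to 0.123), and with quantile normalization (limma adjusted p = 0.0516). The difference from MkP was 0.42 ± 0.30 (limma adjusted p = 0.447). CLP and preGM differed by -0.05 ± 0.30 (limma adjusted p = 0.939), and this value changed sign with the CLP array left out, from -0.53 to 0.39. Without CLP replicate 2 it was -0.53, with preGM called higher (limma adjusted p = 0.0433). Over all probe sets, 6096 were then called higher in preGM, beside 3110 with all arrays.

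Blnk, the adaptor downstream of the receptor, was low but raised in preGM. It read 37.3, 46.4 and 60.7 in preGM and 390.1, 947.9 and 736.2 in CLP, and 13.7 to 25.4 on the other 11 arrays. All preGM arrays lay above those 11 and below CLP, at 6.97% of the CLP mean. The difference of preGM was 0.91 ± 0.21 from preMegE (limma adjusted p = 0.018), 0.90 ± 0.24 from MkP (limma adjusted p = 0.0363) and 0.96 ± 0.24 from preCFUE (limma adjusted p = 0.019). Without preGM replicate 2 or preGM replicate 3 the first had an adjusted p of 0.0654 and 0.105 (limma), and the third of 0.0534 and 0.0862 (limma); the third was also lost without preCFUE replicate 1 or 3, and the second without preGM replicate 2 or 3, preMegE replicate 1, 4 or 5, MkP replicate 1 or 3, or preCFUE replicate 3 (limma adjusted p = 0.0504 to 0.135). CLP exceeded preGM by 3.39 ± 0.24 (limma adjusted p = 6.84e-07).

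For the 5 genes that passed the test in at least 1 comparison of preGM with a megakaryocyte or erythroid fraction, the preGM mean was 6.97% of the CLP mean for Blnk, 22% for Rag2, 23.9% for Dntt, 39.0% for Ighm and 88.5% for Cd79b. Without CLP replicate 2 the shares were 8.55%, 26.7%, 28.3%, 36.6% and 151%, so that of Cd79b changed its side of CLP. No share is given for Rag1, Vpreb1, Vpreb3, Igll1 and Cd79a, whose preGM values overlapped with those of megakaryocyte or erythroid arrays, and the other shares still contain the background of the array. In a sorted bulk sample, fewer cells with a transcript and less transcript per cell cannot be told apart. Within CLP, replicate 2 was the highest array for 7 of the 10 genes (Rag1, Rag2, Dntt, Vpreb1, Igll1, Cd79b and Blnk), and replicate 3 for the other 3. Within preGM, replicate 3 was the lowest for 5 genes (Rag1, Rag2, Dntt, Vpreb1 and Cd79b) and the highest for 4 (Vpreb3, Igll1, Cd79a and Blnk), so the genes did not move as 1 block between arrays of a fraction.

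Genes of early lymphoid progenitors outside the receptor and recombinase were examined through a list of 18 genes, of which 16 were measured. Against preMegE, 9 were higher in preGM, 0 lower and 7 did not pass, beside 3.46% of all probe sets called higher. The median log2 difference of the 16 was 0.97. The largest were Cnn3, an actin-binding calponin (1226 against 28.5, a difference of 4.81 ± 0.22, limma adjusted p = 4.87e-09), Flt3, the cytokine receptor also named Flk2 in the CLP gate (1090 against 49.9, 4.09), and Satb1, a chromatin organiser (1284 against 67.0, 4.00). Against MkP the counts were 9 higher, 0 lower and 7 not called, and against preCFUE 10, 0 and 6. Of all probe sets, 4.28% were called higher in preGM than in MkP, 4.95% than in preCFUE, and 3.9% higher in CLP than in preGM. In CLP against preGM, 9 were higher, 0 lower and 7 did not pass, led by Il7r (1752 against 60.6, a difference of 4.66 ± 0.33, limma adjusted p = 8.86e-07), the chemokine receptor gene Ccr9 (209.7 against 9.40, 3.13) and Ly6d, a surface marker of B-biased CLP (201.9 against 17.8, 2.68). The preGM arrays read 79.4, 86.8 and 15.5 for Il7r, with replicate 3 the lowest, as it was for Dntt and Vpreb1.

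**Figure D4:**
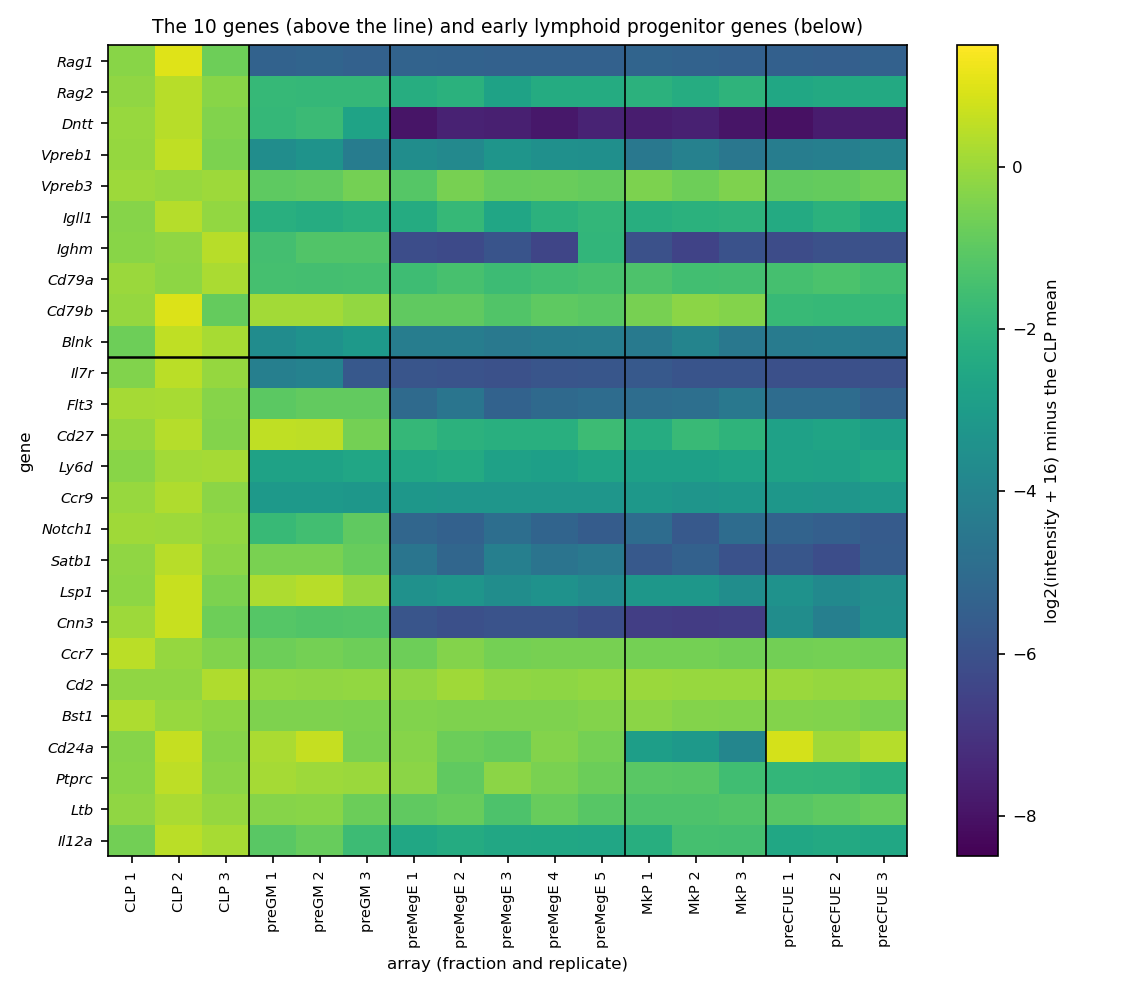
Heat map of log2(intensity + 16) minus the mean of the CLP arrays for the 10 genes (above the line) and the 16 measured early lymphoid progenitor genes (below it) on the 17 arrays; values run from -8.06 to 1.01. Among the 10 genes, Dntt and Ighm lie on average 2.08 and 1.31 below CLP in preGM and are darkest in the megakaryocyte and erythroid arrays, apart from preMegE replicate 5 for Ighm, whereas Rag1 and Vpreb1 are already 5.33 and 3.76 below CLP in preGM.

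Of 18 regulators of the B lineage, 2 were higher and 2 lower in preGM than in preMegE and 14 did not pass, with a median of -0.02, beside 3.46% and 1.75% of all probe sets. Against MkP 6 were higher and 0 lower, beside 4.28% and 2.26% of all probe sets. Against preCFUE 4 were higher and 1 lower, beside 4.95% and 3.52%. The largest differences from preMegE were those of Spi1, which encodes the myeloid and lymphoid factor PU.1 (145.0 against 47.8, 1.29), Bcl11a, a zinc finger factor needed for lymphoid development (709.0 against 1536, -1.11), and Tcf4, an E protein gene (704.2 against 317.1, 1.10). In CLP, 9 of the 18 were higher than in preGM and 1, Spi1, was lower, beside 3.9% and 6.91% of all probe sets. The median over the 18 was 0.60. Ebf1, which specifies the B lineage, read 1147, 646.7 and 1030 in CLP and 5.32 to 7.38 on the other 14 arrays, a difference from preGM of 5.39 ± 0.14 (limma adjusted p = 4.62e-11). It was followed by Foxo1 (979.6 against 168.0, 2.45) and the B cell coactivator gene Pou2af1 (76.3 against 9.14, 1.75). Pax5, which fixes the B cell fate, read 24.6 to 37.3 in CLP, 11.3 to 15.9 in preGM and 20.7 to 25.2 in MkP, which overlapped with CLP.

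The 17 measured partners of pre-B receptor signalling had a median difference of preGM from preMegE of 0.24, with 0 lower and 12 not called. Beside 3.46% of all probe sets, 5 of the 17 were higher in preGM. Plcg2, the phospholipase that Blnk recruits, led them (1245 against 262.4, a difference of 2.19 ± 0.12, limma adjusted p = 1.73e-08), followed by the adaptor gene Pik3ap1 (66.6 against 15.4, 1.40) and the transcription factor gene Nfatc1 (315.2 against 126.5, 1.25). Against MkP 3 were higher, against preCFUE 6, and in CLP against preGM 6, with 0 lower in each. The shares of all probe sets called higher were 4.28%, 4.95% and 3.9%. The CLP calls were led by the kinase genes Prkcb (193.9 against 25.3, 2.30) and Blk (58.1 against 11.1, 1.43) and the scaffold gene Bank1 (108.5 against 14.4, 2.01). A list drawn up for partners of the recombinase and of DNA end joining had 12 measured genes. Of these 1 was higher in preGM than in preMegE, beside 3.46% of all probe sets, and 11 did not pass. The called gene, Ung (715.4 against 412.5, 0.77), encodes a uracil glycosylase, which is not itself an end joining factor. Against MkP 1 of the 12 was higher in preGM, Lig4 (19.4 against 10.3, 0.43, limma adjusted p = 0.0389), beside 4.28% of all probe sets. Against preCFUE 1 was higher, Trp53bp1 (0.99, limma adjusted p = 0.00926), and 1 lower, Xrcc5 (-1.36, limma adjusted p = 0.00577). The shares of all probe sets there were 4.95% and 3.52%. In CLP against preGM none of the 12 was called. Many of these partners act in other blood cells too, so their levels do not mark the B lineage by themselves.

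Markers of other cell types were summed beside these values. The 8 measured mature B cell markers summed to 454.7 to 488.2 in CLP, 256.1 to 312.7 in preGM and 172.8 to 239.3 in the other fractions. Cd37 alone read 317.8 to 354.4 in CLP, 157.2 to 206.9 in preGM and 89.8 to 160.8 in the others. Of the 8, 2 were higher in preGM than in preMegE, beside 3.46% of all probe sets. Ms4a1, which marks mature B cells, read 6.69 to 14.3 on all 17 arrays. The 5 plasma cell markers summed to 86.1 to 113.9 in preGM, 272.8 to 538.2 in CLP and 57.8 to 130.2 in the other fractions. Sdc1 was the 1 of the 5 higher in preGM than in preMegE, beside 3.46% of all probe sets. Its means were 40.7 and 6.54, a difference of 1.285 (limma adjusted p = 0.00137). Against MkP and against preCFUE 1 of the 5 was higher in preGM, beside 4.28% and 4.95% of all probe sets. In CLP Sdc1 read 155.6 to 327.7 and Mzb1 82.1 to 181.9, while Jchain read 8.41 to 9.88. Plasmacytoid dendritic cell markers (8 genes) summed to 760.0 to 1090 in preGM, 1778 to 2216 in CLP and 455.2 to 636.9 elsewhere. Tcf4 alone read 546.5 to 855.9 in preGM, 1062 to 1204 in CLP and 238.4 to 449.6 elsewhere. It was the 1 of the 8 higher in preGM than in preMegE, beside 3.46% of all probe sets. Siglech, the defining surface gene of these cells, read 16.7 to 23.1 in preGM and 18.2 to 28.6 in the megakaryocyte and erythroid fractions. Granulocyte and monocyte progenitor markers (8 of 8 higher in preGM than in preMegE) moved with Dntt and Ighm between those fractions but not between preGM and CLP, where 6 of the 8 were lower in CLP. The part of any of these cell types in the values of the 10 genes was not tested.

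The genes most like each member over the 17 arrays were ranked by Pearson's correlation of log2 values among 5871 genes that passed the F test; the arrays share their fractions, so these values are a description. Dntt was closest to Sting1 (r = 0.994), Flt3 (0.991) and Snn (0.990). Sting1, a sensor of cytosolic DNA signalling, read 492.1 ± 58.6 in preGM (SD, n = 3), 862.2 ± 45.9 in CLP (SD, n = 3) and a mean of 7.36 to 13.3 in the other fractions. Ighm was closest to Themis2 (0.945), Mgst2 (0.944) and Myof (0.940), and its r with Dntt was 0.928. Rag1 was closest to Ccr9 (0.997), Gimap4 (0.992) and Gpat3 (0.991), all high in CLP and low in preGM, and its r with Vpreb1 was 0.971. Rag2 was closest to Evl (0.980), Gimap7 (0.979) and Cass4 (0.973), Vpreb1 to St6gal1 (0.981), Ccr9 (0.970) and Arpp21 (0.966), and Blnk to Zfp658 (0.991), Cmah (0.989) and Lpar1 (0.987). Vpreb3 was closest to 5730488B01Rik (0.951), Septin1 (0.934) and Bhlha15 (0.929). Cd79a had Ebf1 among its 3 closest genes (0.984), after Gpr25 (0.989) and Rasgrp3 (0.986). Cd79b was closest to Smim14 (0.941), Serpinb1a (0.940) and Stat4 (0.933), and its r with its partner Cd79a was 0.366. Igll1 was closest to Gimap4 (0.977), then to the Y-linked Kdm5d (0.971), which marks the CLP arrays by sex, and to Cmah (0.967).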

How the data were processed

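Gene expression was measured on 17 arrays of 5 sorted bone marrow fractions, and each array was placed in its fraction by the gate and replicate number in its title. A free-text label shared by all arrays names another gate and was not used. Sorting was directly into lysis buffer, with column purification of RNA, per the labels' protocols. The small-sample labelling used repeated in vitro transcription, which favours the 3′ ends of transcripts, and probe values were extracted with RMA, per the series' design text and the submitters' processing notes. The authors deposited linear RMA intensities, with array medians of 15.96 to 19.07. The RMA software version is not given in the sources used here. The SD-to-mean filter named in the design text had not been applied to the deposited values (45101 probe sets), of which 64 controls were left out here.

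Values were taken as log2(intensity + 16); 47.3% of intensities lay under 16, so differences of dim genes are understated, and a dim value does not show absence. One mean per fraction was fitted over all 17 arrays in limma 3.58.1 (R 4.3.3, with the data.table package, version 1.17.8) with two-sided tests, empirical Bayes moderation (12 residual and 1.82 prior degrees of freedom), Benjamini-Hochberg adjustment over 45037 probe sets, and calls at an adjusted p under 0.05. The procedure was tested on simulated data with independent noise, no outlying array and shifts placed only in brighter probe sets. That test does not cover dim genes. The 4 comparisons were preGM against preMegE, MkP and preCFUE, and CLP against preGM, with an F test over the fractions. The platform annotation gave names: 34945 had 1 symbol, 932 had several and 9160 were not listed. The number of arrays limits the precision.

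The genes, the 4 pathway lists and the 8 marker lists were chosen with earlier results of these data known. Named list genes were the 3 with the largest difference past the test against preMegE and in CLP against preGM, and marker genes were named where a member's value touched them. For the partners of the recombinase and end joining, genes called against MkP and preCFUE were named too. The genes most alike were the 3 with the highest correlation per member. Alternatives changed the offset, normalization, filters, unit of the fit, array weights, covariates and arrays used. One was added after seeing the data, leaving out CLP replicate 2 and preMegE replicate 5 together. Promoter windows came from RefSeq (GRCm38.p6) by symbol, and no coordinates were read for the probe sets. Python 3.11.15 with matplotlib 3.10.9 drew the plots.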

Additional observations from a re-analysis of the deposited data

Results flagged for a closer look

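Only preMegE, with 5 arrays, was large enough to look for single arrays far from the others, by comparing the gap of the highest or lowest array with the whole range of the fraction. Of the 23 probe sets of the 10 genes, 3 had such an array, where chance gives about 1 in 20. Replicate 5 read 582.7 for Ighm probe set 1427351_s_at and 121.6 for 1427329_a_at, at 0.888 and 0.83 of the range from the next array. Replicate 3 read 14.44 for Blnk, below the other 4 arrays, with a gap of 0.78 of the range; the limit for 5 arrays is 0.71.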

How the results depend on the processing

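Of 20 differences that passed the test, 557 of 599 alternative values kept the call and direction, 42 kept the direction but missed the threshold and 0 reversed. Of 20 that did not pass, 554 of 597 stayed so, 18 passed and 25 changed sign. Several settings cannot change an estimate, such as leaving out an array of a fraction not compared or filtering probe sets. No sign could change in them. With an offset of 64, the genes called fell to 2 against preMegE and 3 against preCFUE. Blnk against MkP also missed the threshold at this offset (0.44, limma adjusted p = 0.227). Probe sets called higher in preGM were then 1492 against preMegE, 1721 against MkP and 2044 against preCFUE. With the offset of the main fit they were 1557, 1929 and 2231. Array weights gave 5 genes against MkP (4 higher, 1 lower). Over all probe sets they called 6042 higher and 4237 lower there, beside 1929 and 1020 with equal weights. Leaving out 1 array at a time gave 2 to 5 genes against preMegE, 2 to 3 against MkP, 3 to 5 against preCFUE, 8 to 9 in CLP against preGM and 10 in the F test. Probe sets called higher in preGM then numbered 1157 to 1755 against preMegE, 1138 to 2492 against MkP and 1714 to 2462 against preCFUE. In CLP against preGM, 621 to 4349 were called higher in CLP and 1226 to 6096 higher in preGM. Leaving out CLP replicate 2 and preMegE replicate 5 together, added after seeing the data, gave 5, 3, 5, 9 and 10 genes. That setting called 1465, 2221 and 2303 probe sets higher in preGM in the first 3 comparisons. In CLP against preGM it called 3857 higher and 5700 lower.

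The labels tie no replicate number to a mouse or batch, and deviations of same-numbered arrays correlated from -0.38 to 0.453, with 7 of 12 pairs over 0.1, so the numbers were not taken to pair the arrays. With the replicate number as a block, 2 genes were called against preMegE, 2 against MkP, 4 against preCFUE and 9 in CLP against preGM. Over all probe sets, 970, 1227 and 1799 were then called higher in preGM in the first 3 comparisons, beside 1557, 1929 and 2231 without the block. In CLP against preGM the block called 810 higher and 1489 lower, beside 1757 and 3110. Only preMegE has replicates 4 and 5, so the block gave each of these arrays its own term. Those 2 arrays then added nothing to the differences or their spread. Under this block Blnk (adjusted p = 0.0692) and Cd79b (0.104) against preMegE, Blnk against MkP (0.0679) and Rag2 against preCFUE (0.0772) missed the threshold in limma. Ighm in CLP against preGM passed under it (limma adjusted p = 0.0013), as it did without preMegE replicate 5 (0.00121).

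Sign changes were in differences that did not pass. Cd79a against MkP was 0.03056 with quantile normalization, 0.02945 with median centring, 0.02491 with the 3′ to 5′ ratio as a covariate and -0.07129 to 0.04363 over single arrays. Against preCFUE it was 0.008885 with the covariate and -0.05744 to 0.0423 over single arrays. Cd79b in CLP against preGM was 0.01138 with an offset of 64, 0.20 with quantile normalization, 0.18 with the covariate and -0.53 to 0.39 over single arrays. Igll1 against preMegE was 0.01178 with the replicate block. Rag1 was -0.12 against MkP and -0.03995 against preMegE with the covariate. Vpreb1 against preMegE was 0.033 with array weights and -0.41 to 0.053 over single arrays. Vpreb3 was -0.007487 against preCFUE with quantile normalization, -0.10 with array weights and -0.11 to 0.08354 over single arrays, and against preMegE -0.03998 with array weights and -0.10 to 0.08954 over single arrays. The causes were not tested.

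Over all probe sets, 36.1% of calls in CLP against preGM were higher in CLP (1757 and 3110), against 47.3% with quantile normalization (1704 and 1898) and 19.8% with median centring (995 and 4019). A fit of the compared arrays alone called 160 and 433.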

Other observations

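A probe set without a listed gene (1428720_s_at), singled out after its values were seen, read 546 on preMegE replicate 5 and 7.83 to 13.4 on the other 16 arrays. On that array the myeloid gene Mpo read 170.6, against 26.7 to 70.8 on the other preMegE arrays.

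Within preGM, Il7r, Dntt, Vpreb1 and Cd27 were all lowest on replicate 3, a pattern also noticed after the values were seen. Cd27, a receptor of early lymphoid cells, read 339.1, 330.7 and 147.1 there, while Notch1 read 836.6, 972.7 and 1493 and was highest on replicate 3. The log2 ratio of the 3′ to the 5′ Gapdh control probe sets was 2.72, 3.15 and 3.94 on the preGM arrays and 5.12, 3.00 and 4.08 on the CLP arrays. The part of this ratio in the differences between replicates was not tested.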
